A study of Mus musculus with 12 samples.

Results

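Transcripts of 10 genes of interleukin-1 (IL-1), tumour necrosis factor (TNF) and NF-kB feedback were measured in tubular epithelial cells (TECs) and in neutrophils (PMN) of mice with ischemia-reperfusion injury (IRI) of the kidney, with and without glutamine. The genes were Il1b, Il1a, Tnf, Il1r2, Tnfrsf1a, Il1rn, Nfkb1, Nfkbia, Nfkbiz and Tnfaip3 and were taken from the tables by symbol. All 10 had a row in both gene tables, out of 50433 gene rows for TECs and 50434 for PMN. The study addressed how glutamine given to mice affects acute kidney injury after IRI, and the comparison here is glutamine against vehicle within each cell type.

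Each group held 3 libraries, and all 4 groups came from animals with IRI, so no uninjured control enters the comparison. The mice were male C57BL/6J of 8 to 12 weeks. Both renal pedicles were clamped for 35 minutes, and cells were taken 24 h after IRI. The glutamine groups received 0.5 g/kg of N(2)-L-alanyl-L-glutamine (Dipeptiven), a dipeptide that releases glutamine, intravenously, and the vehicle groups received saline. For the time of injection the sources differ, since the legend of the study's TEC gene list gives 15 minutes after reperfusion and its main text gives 4 h. TECs were sorted from kidney as cells without the leukocyte antigen CD45 and with Prominin-1, a surface protein of tubular cells. PMN came from peripheral blood, and the sources used here do not say how they were sorted.

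IL-1β, IL-1α and TNF are cytokines that bind receptors at the cell surface and release the transcription factor NF-kB from its inhibitors. NF-kB in turn drives transcription of several of its own brakes, among them the inhibitor IκBα and the ubiquitin-editing enzyme A20, so that the levels of these brakes follow recent activity of the pathway. Neutrophils that enter injured kidney are a known source of IL-1β and TNF, while tubular cells carry the receptors for both.

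Library totals were 5397370 to 10223461 counts for TECs and 20225246 to 21878446 for PMN. TEC libraries resembled each other more than PMN libraries did, with correlations across genes of log2 CPM (counts scaled to library size) of 0.88 to 0.94 and 0.49 to 0.56, respectively. Glutamine replicate 2 was the shallowest TEC library. The share of counts in predicted genes, Rik clones and sensory receptor genes was 17.5 to 23.3% in TEC vehicle libraries and 26.4 to 30.8% in TEC glutamine libraries, so this measure of transcripts from sparsely annotated sequence separated the TEC groups. Leaving those genes out of the scaling turned the direction of no member in either cell type, and the part of that difference in the results was otherwise not tested. The tubular marker list of 12 genes summed to 4106 to 5354 CPM in TEC vehicle and 4719 to 6360 CPM in TEC glutamine libraries, and to 35.7 to 1332 CPM in PMN. Neutrophil markers summed to 22082 to 73140 CPM in PMN, and Ly6g, a surface marker of mouse neutrophils, was at 49.2 to 178 CPM in all 6 of those libraries. Monocyte, macrophage and dendritic cell markers summed to 8176 to 16409 CPM in PMN, with the macrophage gene C1qb at 585 to 3394 CPM. The labelled cell types therefore carried their own markers, and the PMN libraries those of other myeloid cells as well. The part of such cells in the PMN values was not tested. Of the 12 tubular markers none passed adjustment between the TEC groups, and at an unadjusted p below 0.05 there were 3 higher with glutamine, Slc5a12, Slc12a1 and Slc12a3, and 1 lower, Havcr1, against 7.23% and 5.51% of all TEC genes. Havcr1, the injury marker KIM-1, was at 793, 541 and 106 CPM with vehicle and 94.1, 49.4 and 26.2 CPM with glutamine, with an adjusted p of 0.178 by edgeR. Slc12a1, a transporter of the thick ascending limb, was at 38.3, 45.0 and 38.0 CPM with vehicle and 53.0, 143 and 104 CPM with glutamine, with an adjusted p of 0.208. The libraries of Havcr1 and of Slc12a1 did not overlap between the groups, and the part of these markers in the TEC results was not tested.

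All 10 genes are protein-coding (GENCODE M21, build GRCm38). The 2 IL-1 agonists lie near each other on chromosome 2, Il1b at chr2:129364570-129371139 and Il1a at chr2:129299610-129309972, both on the minus strand, and the antagonist gene Il1rn lies elsewhere on the same chromosome at chr2:24336853-24351494 on the plus strand. Il1r2 lies at chr1:40074079-40125231 and Tnfrsf1a at chr6:125349362-125362484, both on the plus strand. The others lie on the minus strand: Tnf at chr17:35199381-35202007, Nfkb1 at chr3:135584655-135691547, Nfkbia at chr12:55489410-55492647, Nfkbiz at chr16:55811375-55838899 and Tnfaip3 at chr10:19000910-19015657. Exons of Il1b share 25 bases with the antisense gene Il1bos and exons of Il1a share 222 bases with Gm14023 on the opposite strand. Whether the counting used strand is not stated, so reads from those shared bases cannot be told apart.

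Start-site sequences are shown for the 3 genes whose PMN groups did not overlap, Nfkbia, Il1b and Il1r2, and for Tnfaip3, the other gene in which a consensus NF-kB site was found. Each is the 250 bases before the start in the RefSeq table (GRCm38.p6), 5′ to 3′ on the gene's strand, with capitals marking a match to the NF-kB consensus or to TATAAA.
Nfkbia, chr12:55492648-55492897, minus strand: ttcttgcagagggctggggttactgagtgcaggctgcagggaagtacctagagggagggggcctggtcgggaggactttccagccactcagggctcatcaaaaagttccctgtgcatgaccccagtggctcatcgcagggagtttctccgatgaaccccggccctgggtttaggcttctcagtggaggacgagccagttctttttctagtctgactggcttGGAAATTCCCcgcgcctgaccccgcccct
Tnfaip3, chr10:19015411-19015660, minus strand: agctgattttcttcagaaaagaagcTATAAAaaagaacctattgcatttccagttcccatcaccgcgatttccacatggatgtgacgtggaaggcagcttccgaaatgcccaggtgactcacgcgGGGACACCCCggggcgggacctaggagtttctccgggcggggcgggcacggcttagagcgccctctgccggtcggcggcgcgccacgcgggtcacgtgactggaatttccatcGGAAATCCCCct
Il1b, chr2:129371140-129371389, minus strand: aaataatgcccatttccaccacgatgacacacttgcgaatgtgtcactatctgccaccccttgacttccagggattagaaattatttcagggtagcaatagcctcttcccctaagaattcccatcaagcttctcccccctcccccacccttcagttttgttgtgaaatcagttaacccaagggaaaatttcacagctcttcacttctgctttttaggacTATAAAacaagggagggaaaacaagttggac
Il1r2, chr1:40085843-40086092, plus strand: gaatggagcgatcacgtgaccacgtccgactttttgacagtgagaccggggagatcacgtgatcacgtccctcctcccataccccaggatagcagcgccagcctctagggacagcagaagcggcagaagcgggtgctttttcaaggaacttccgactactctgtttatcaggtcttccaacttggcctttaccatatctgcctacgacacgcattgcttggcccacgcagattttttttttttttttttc

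Both strands were searched for the NF-kB consensus and for TATAAA, and no matches of one overlapped the other. Of the 10 genes, 8 had an entry in the table, with 11 entries in all, and Nfkbiz and Nfkb1 had none. Nfkbia, which encodes IκBα, held 1 NF-kB match, GGAAATTCCC on the minus strand at 29 to 20 bases before the start. Tnfaip3, which encodes A20, held 2 in its first entry, GGGACACCCC at 125 to 116 bases and GGAAATCCCC at 12 to 3 bases before the start. Across all 32851 promoters of the table, 3.9% held such a match. TATAAA was found at 31 to 26 bases before the Il1b start, 32 to 27 before the Il1a start and 29 to 24 before the Tnf start, and also at 225 to 220 bases in the first Tnfaip3 entry, against 12.4% of all promoters. No match to the consensus was found in the windows of Il1b, Il1a, Il1r2, Il1rn, Tnf and Tnfrsf1a, and the Il1r2 start used here lies inside the longer gene of GENCODE. A match describes the letters of this window and says nothing about binding in these cells.

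Per length, the order of the 10 genes differed between the cell types, and since the 2 tables were scaled separately the levels are ordered only within each. The length is that of all annotated exons of a gene, merged over its transcripts, so the order depends on that choice. Before division by length, Il1rn was above Tnf in PMN given vehicle, at means of 860 and 522 CPM with overlapping libraries. In PMN given vehicle, Il1b stood first with 3812 ± 640 CPM per kb of exon (SD, n = 3) and Il1r2 second with 3423 ± 75.3, and the libraries of these 2 overlapped. Nfkbia followed at 2161 ± 290 CPM per kb, clear of both neighbours. Tnf, Nfkbiz, Il1rn, Tnfaip3, Tnfrsf1a and Il1a formed a run from 318 down to 120 CPM per kb in which each overlapped the next. Nfkb1, which encodes the p105 precursor of the NF-kB subunit p50, stood last at 7.19 ± 3.34 CPM per kb.

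In TECs given vehicle, Nfkbia stood first at 184 ± 46.7 CPM per kb, and Tnfrsf1a, the main signalling receptor for TNF, second at 68.5 ± 16.6. Nfkbiz, which encodes an atypical IκB protein that acts in the nucleus, followed at 15.3 ± 1.74. These 3 did not overlap each other or the genes below them. Nfkb1, Il1b, Tnf, Il1r2 and Tnfaip3 ran from 2.51 down to 0.80 CPM per kb with each overlapping the next, and Il1rn and Il1a were lowest at 0.427 and 0.213. The 3 leading genes kept their places with glutamine, whereas Il1b and Il1r2 stood above Nfkb1, although the libraries of these 3 overlapped.

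In PMN, 9 of the 10 genes had a higher fitted level with glutamine, and for Il1b, Il1r2 and Nfkbia every glutamine library lay above every vehicle library. None of the 10 passed the test after adjustment over all genes, and the adjusted p by edgeR was 0.893 for Il1r2 and 0.99996 for each of the other 9. The median log2 fold change of the 10 was 0.42, against 0.00 over all 10130 genes tested, of which 5066 were higher. No gene of the whole table passed an adjusted p of 0.05 in edgeR's quasi-likelihood test, a background of 0%, while limma called 0 genes and DESeq2 called 304, with no member among them. At an unadjusted p below 0.05 the background was 2.04% of genes higher (207) and 1.37% lower (139), and Il1b, Il1r2 and Nfkbia were the 3 members in that group. That count was 0 with DESeq2 and under a minimum of 10 counts a library, 2 with RLE scaling and with scaling without predicted genes, and 4 with limma. It was 1 without vehicle replicate 2, glutamine replicate 1 or glutamine replicate 2, 2 without vehicle replicate 3 or glutamine replicate 3, and 4 without vehicle replicate 1. Groups were apart with glutamine higher for 5.87% of all genes and with glutamine lower for 4.63%, against these 3 and none of the 10.

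Most of the 10 genes are abundant in PMN, and the most abundant genes of the table also lay toward glutamine. Of the 138 genes of at least 1000 CPM, 99 were higher, their median log2 fold change was 0.19, 11.6% had groups apart with glutamine higher against 2.17% lower, and 10.1% were higher at an unadjusted p below 0.05. Of the 1666 genes of at least 100 CPM, 859 were higher, with a median of 0.02 and 6.60% apart and higher. Il1b, Il1r2 and Nfkbia all belong to the first class, so these shares, rather than those of the whole table, are the ones at their own abundance. Scaling on the genes of at least 100 CPM, chosen after the data were seen, left fitted log2 fold changes of 0.35 for Il1b, 0.40 for Il1r2 and 0.50 for Nfkbia, with groups still apart.

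**Figure D1:**
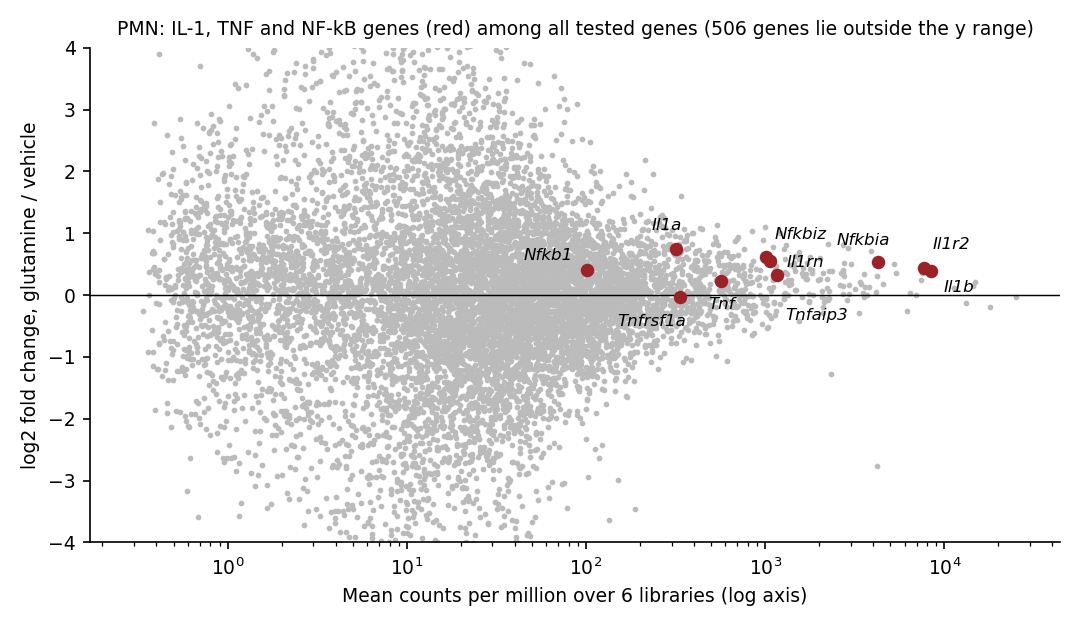
Fitted log2 fold change with glutamine against mean CPM (log axis) for every gene tested in PMN, one grey point a gene, with the 10 IL-1, TNF and NF-kB genes in red. A further 506 genes lie outside the drawn range of 4 on the log2 scale, and the red points sit at or above 0 except Tnfrsf1a at -0.03, which was at 0.03 with upper-quartile scaling.

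The 2 IL-1 ligands differed in level and in spread in PMN. Il1b, which encodes IL-1β, was at 7953, 5860 and 7997 CPM in the vehicle libraries and at 9807, 9635 and 8986 CPM in the glutamine libraries. The glutamine libraries were all higher, and vehicle replicate 2 was the lowest of the 6. The fitted log2 fold change was 0.38 ± 0.15 (SE), and the exact two-sided permutation p on log2 CPM was 0.1, the smallest that 3 libraries against 3 can give. Without vehicle replicate 2 it was 0.24. Il1a, which encodes the alarmin IL-1α, was at 468, 152 and 93.0 CPM with vehicle and 646, 332 and 218 CPM with glutamine. The first replicate was highest in both groups, and the groups overlapped. Its fitted log2 fold change was 0.75 ± 0.70, with an exact permutation p of 0.3. It ranged from 0.21 without glutamine replicate 1 to 1.68 without vehicle replicate 1.

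Tnf was at 859, 321 and 385 CPM with vehicle and 821, 372 and 632 CPM with glutamine. The first replicate was again highest in both groups and the groups overlapped throughout, with a log2 fold change of 0.22 ± 0.48 and an exact permutation p of 0.8. Replicates carry no pairing in the PMN labels, so the shared number is a name only.

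Il1r2 encodes the decoy receptor that binds IL-1 without signalling, and it was the member with the smallest p in PMN. It was at 6588, 6368 and 6639 CPM with vehicle and 9612, 9259 and 7747 CPM with glutamine. The vehicle libraries lay close together, and the lowest glutamine library was above all 3. The log2 fold change was 0.44 ± 0.13, with an exact permutation p of 0.1, and it stayed between 0.36 and 0.53 when single libraries were left out. DESeq2 gave 0.37 ± 0.31 with an adjusted p of 0.849. Tnfrsf1a, the signalling TNF receptor, was at 260, 429 and 324 CPM with vehicle and 326, 243 and 423 CPM with glutamine, and its log2 fold change was -0.03 ± 0.35 with an exact permutation p of 0.8. The 2 groups spanned nearly the same range.

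Il1rn encodes the secreted IL-1 receptor antagonist. It was at 707, 973 and 899 CPM with vehicle and 1798, 911 and 1065 CPM with glutamine. Glutamine replicate 1 stood apart, and glutamine replicate 2 lay within the vehicle range. The log2 fold change of 0.55 ± 0.31 had an exact permutation p of 0.2, and was 0.18 without glutamine replicate 1. Antagonist counts per Il1b count were 0.0889, 0.166 and 0.112 with vehicle and 0.183, 0.0946 and 0.119 with glutamine. Decoy receptor counts per Il1b count were 0.828, 1.09 and 0.830 with vehicle and 0.980, 0.961 and 0.862 with glutamine. The groups overlapped in both ratios.

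Among the NF-kB genes in PMN, Nfkbia encodes IκBα, which holds NF-kB in the cytoplasm and is resynthesised on activation. It was at 4015, 3166 and 3255 CPM with vehicle and 5908, 4049 and 5199 CPM with glutamine. The groups were apart by little, vehicle replicate 1 against glutamine replicate 2, and they overlapped with the size factors of DESeq2, with edgeR's RLE scaling, and without vehicle replicate 2 or 3. The log2 fold change was 0.54 ± 0.19, with an exact permutation p of 0.1. Nfkbiz was at 1027, 679 and 692 CPM with vehicle and 1205, 945 and 1510 CPM with glutamine. Only vehicle replicate 1 reached into the glutamine range, and the log2 fold change was 0.61 ± 0.28 with an exact permutation p of 0.2.

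Tnfaip3, the gene of A20, was at 1458, 1029 and 585 CPM with vehicle and 1351, 697 and 1818 CPM with glutamine. The spread within each group was larger than the difference between them, and the log2 fold change was 0.33 ± 0.45 with an exact permutation p of 0.6. Nfkb1 was at 90.5, 44.7 and 125 CPM with vehicle and 77.3, 106 and 160 CPM with glutamine. Its groups overlapped as well, at 0.40 ± 0.61 with an exact permutation p of 0.5. It was 0.08 without vehicle replicate 2 or without glutamine replicate 3, and 0.75 without vehicle replicate 3. Nfkbia and Tnfaip3, the genes with NF-kB matches shown above, thus differed in whether their PMN groups overlapped.

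**Figure D2:**
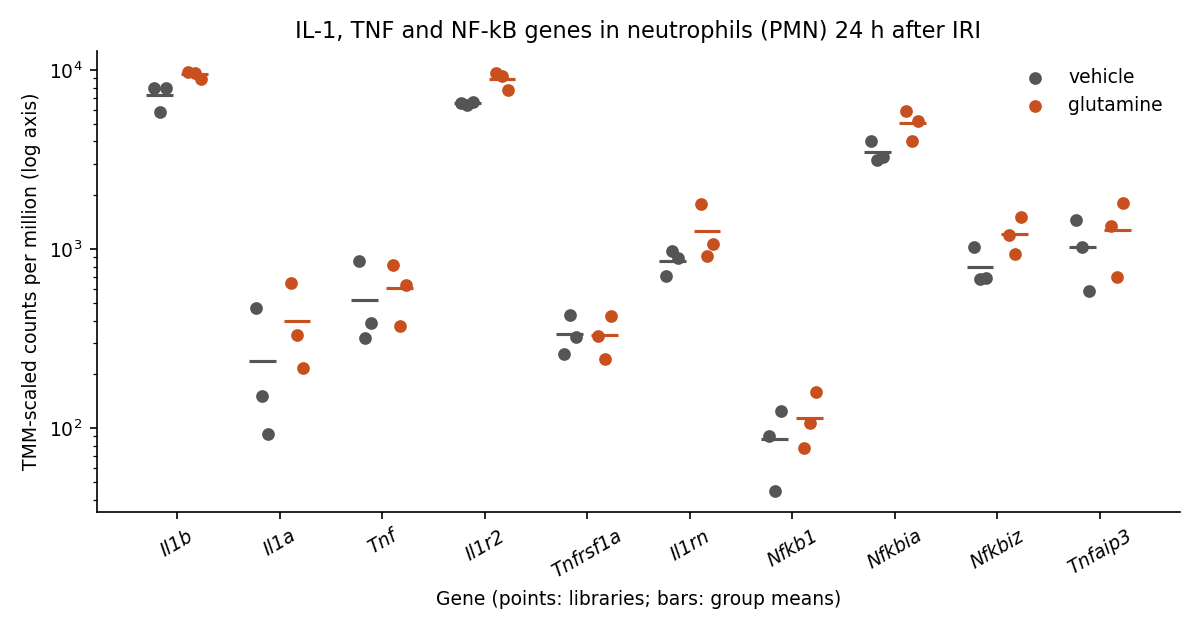
Level in CPM (log axis) of each of the 10 genes in the 3 vehicle and 3 glutamine PMN libraries, with one point a library and bars at the group means. The glutamine points of Il1b, Il1r2 and Nfkbia lie above all vehicle points, and those of the other 7 genes overlap.

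Summed over the 10 genes, counts made up 2.26, 1.91 and 2.13% of PMN vehicle libraries and 2.84, 2.72 and 2.74% of PMN glutamine libraries. Most of that sum comes from Il1b, Il1r2 and Nfkbia. In TECs the 10 genes made up 0.0600, 0.0669 and 0.0626% of vehicle libraries. The glutamine libraries were at 0.0505, 0.0601 and 0.0510%, so the TEC groups overlapped, with most glutamine values lower. The directions of Tnf, Tnfrsf1a and Tnfaip3 in PMN turned when a single library was left out.

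Of the other 81 listed symbols of the IL-1, TNF and NF-kB pathways, 76 had a row and 74 were tested in PMN. Higher levels with glutamine were fitted for 50 and lower ones for 24, the median log2 fold change being 0.36. Without glutamine replicate 1, 41 of the 74 were higher and the median was 0.16. With all libraries, at an unadjusted p below 0.05 there were 5 higher and 0 lower. Groups were apart for 7 higher and 2 lower. The background over all PMN genes, given above, was 2.04% and 1.37% for the former and 5.87% and 4.63% for the latter. The count of 5 at that p was 0 without vehicle replicate 2, 1 with DESeq2 and 2 with RLE scaling. With limma-voom it was 9, of which 8 were higher. Among other NF-kB inhibitors and feedback genes 10 of 14 were higher with a median of 0.41, and their summed level was 10088 to 11412 CPM with vehicle and 13055 to 16526 CPM with glutamine. Most of that sum came from Zfp36 and Dusp1, both above 1000 CPM and so in the class that lay toward glutamine, and without them the sums overlapped, at 2187, 1373 and 1429 CPM with vehicle and 2568, 1830 and 1871 CPM with glutamine. Among other induced targets, such as chemokines and adhesion molecules, 13 of 16 were higher with a median of 0.36, but the summed levels overlapped. Other TNF receptors and shedding genes were higher for 4 of 6, adaptors and kinases for 11 of 19, IKK and other NF-kB subunits for 4 of 6, other IL-1 family genes for 5 of 8 and IL-1 maturation genes for 3 of 5.

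The pathway genes with the smallest p in PMN were Zfp36, Birc3 and Il1f9. Zfp36 encodes tristetraprolin, which promotes decay of Tnf and other cytokine mRNAs. It was at 5011, 3785 and 4277 CPM with vehicle and 5496, 5591 and 7420 CPM with glutamine, a log2 fold change of 0.50 ± 0.18. Birc3, the ubiquitin ligase cIAP2 of the TNF receptor complex, had a log2 fold change of 1.08 ± 0.40. Il1f9, the IL-36γ gene, which RefSeq lists also as Il36g, had 0.94 ± 0.37. The adjusted p by edgeR was 0.99996 for each. In all 3 genes every glutamine library was above every vehicle library. The other two below that p, named here after their values were seen, were Cxcl1, a neutrophil chemokine, at 1.08 ± 0.43 and Nfkbid, a nuclear IκB protein, at 0.69 ± 0.29 on the log2 scale.

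Leukocyte and other cell type markers differed between PMN libraries as well, some of them with the groups. Ptprc, the leukocyte antigen CD45, was at 564, 317 and 569 CPM with vehicle and 754, 819 and 1150 CPM with glutamine, a log2 fold change of 0.91 ± 0.33 with an adjusted p of 0.99996 by edgeR. The 10 lymphocyte markers summed to 0.802 to 6.11 CPM with vehicle and 30.4 to 46.9 CPM with glutamine. Cd79b, of the B cell receptor, had 0 counts in every vehicle library and 594, 394 and 476 counts with glutamine, while Cd3e, Cd8a, Nkg7 and Klrb1c were at 0 in all 6. The 13 neutrophil markers summed to 49657, 30714 and 52920 CPM with vehicle and 73140, 39146 and 22082 CPM with glutamine. Of the 10 tested, 6 were higher and 4 lower with glutamine, and only Mmp9 had groups apart. It was at 574, 553 and 525 CPM with vehicle and 1343, 743 and 1307 CPM with glutamine. Its log2 fold change was 1.04 ± 0.29 with an adjusted p of 0.852 by edgeR. Monocyte, macrophage and dendritic cell markers summed to 8176 to 15254 CPM with vehicle and 8911 to 16409 CPM with glutamine, with 10 of 14 higher. Tubular markers were high in vehicle replicate 1 at 1332 CPM, and endothelial and stromal ones in vehicle replicate 2 at 1490 CPM, against 137 and 100 CPM at most elsewhere.

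Within each PMN group the libraries had the same order in Il1b as in the neutrophil marker sum, whereas across groups glutamine replicate 3 had the lowest sum and more Il1b than any vehicle library. Il1b counts per count of S100a8 and S100a9, the calprotectin genes, were 0.230, 0.265 and 0.192 with vehicle and 0.186, 0.326 and 0.670 with glutamine, so the groups overlapped on that base. S100a8 was lowest in glutamine replicate 3. The part of the marker differences in the PMN results was not tested. In bulk libraries, fewer cells of a type and less RNA per cell cannot be told apart.

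In TECs, no common direction was seen. Of the 10 genes 9 passed the filter on low counts, 5 of them higher and 4 lower with glutamine. The median of their log2 fold changes was 0.01, the same as over all 14734 genes tested (7454 higher). No gene of the table passed an adjusted p of 0.05 by edgeR, a background of 0%, while limma called 0 and DESeq2 called 245, again without a member. Without glutamine replicate 2 edgeR called 36 TEC genes, and without vehicle replicate 5 it called 4, none of them a member. At an unadjusted p below 0.05 there were 7.23% of genes higher (1066) and 5.51% lower (812), and Il1r2 was the only member among them. That count of 1 was 0 under a minimum of 10 counts a library, which leaves out Il1r2, and without glutamine replicate 1 or 2. It was 2 without vehicle replicate 3 or glutamine replicate 3, and 3 without the filter, and without vehicle replicate 5 the member was Tnfrsf1a in place of Il1r2. Groups were apart with glutamine higher for 9.01% of genes and with glutamine lower for 9.81%, and again only Il1r2 of the 9, 1 in number, was in the first class. The direction of Il1rn, Tnf, Nfkbia, Nfkbiz and Nfkb1 in TECs turned when a single library was left out.

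Nfkbia, Tnfrsf1a, Nfkbiz and Nfkb1 had the most counts of the 10 in TECs. Nfkbia was at 230, 281 and 378 CPM in vehicle replicates 3, 4 and 5 and at 266, 372 and 285 CPM in glutamine replicates 1, 2 and 3. The ranges were nearly the same, and the log2 fold change was 0.05 ± 0.23 with an adjusted p of 0.944 by edgeR. Nfkbiz was at 75.6, 68.5 and 85.9 CPM with vehicle and 60.2, 94.6 and 80.7 CPM with glutamine, a log2 fold change of 0.03 ± 0.23. Nfkb1 was the most even member, at 29.9, 31.3 and 29.5 CPM with vehicle and 30.8, 32.7 and 27.7 CPM with glutamine, and its log2 fold change was 0.01 ± 0.22.

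Tnfrsf1a, through which tubular cells respond to TNF, was at 183, 218 and 132 CPM with vehicle and 137, 115 and 138 CPM with glutamine. Vehicle replicate 5 lay within the glutamine range. The log2 fold change of -0.45 ± 0.22 had an adjusted p of 0.432 by edgeR, and it ranged from -0.63 to -0.28 when single libraries were left out. Tnfaip3 was low, at 6.41, 4.93 and 6.01 CPM with vehicle and 3.72, 5.22 and 3.73 CPM with glutamine. Glutamine replicate 2 overlapped the vehicle libraries, and the log2 fold change was -0.46 ± 0.43 with an adjusted p of 0.681 by edgeR.

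The IL-1 genes had low counts in TECs. Il1b had 108, 22 and 11 counts with vehicle and 131, 81 and 30 with glutamine, or 10.7, 1.97 and 1.12 CPM against 15.7, 16.3 and 3.29 CPM. Vehicle replicate 3 lay among the glutamine libraries and glutamine replicate 3 near the others of vehicle. The log2 fold change was 1.35 ± 0.79 with an adjusted p of 0.497 by edgeR. It was 2.89 without vehicle replicate 3, and 0.88 without vehicle replicate 5. Il1a had 11, 2 and 0 counts with vehicle and 2, 4 and 6 with glutamine, and was left out of the test by the filter.

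Il1r2 had 24, 34 and 6 counts with vehicle and 56, 49 and 28 with glutamine. In CPM these were 2.37, 3.05 and 0.611 against 6.73, 9.84 and 3.07, so the groups were apart only by the small step between vehicle replicate 4 and glutamine replicate 3. They overlapped with upper-quartile scaling, without the filter on low counts, and with scaling on genes of at least 100 CPM. The fitted fold was 3.20, a log2 fold change of 1.68 ± 0.67 with an adjusted p of 0.340 by edgeR. Il1rn had 36, 27 and 11 counts with vehicle and 31, 13 and 2 with glutamine, a log2 fold change of -0.13 ± 0.89. Il1rn counts per Il1b count were 0.333, 1.23 and 1 with vehicle and 0.237, 0.160 and 0.0667 with glutamine, lower in every glutamine library but resting on as few as 2 counts, and not tested. Il1r2 counts per Il1b count were 0.222, 1.55 and 0.545 with vehicle and 0.427, 0.605 and 0.933 with glutamine, and overlapped.

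Tnf had 54, 20 and 5 counts with vehicle and 17, 11 and 17 with glutamine in TECs. The vehicle libraries spanned 0.509 to 5.33 CPM and the glutamine libraries 1.86 to 2.21 CPM, inside that span. The log2 fold change was -0.32 ± 0.82, and 0.80 without vehicle replicate 3, so no direction can be given.

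**Figure D3:**
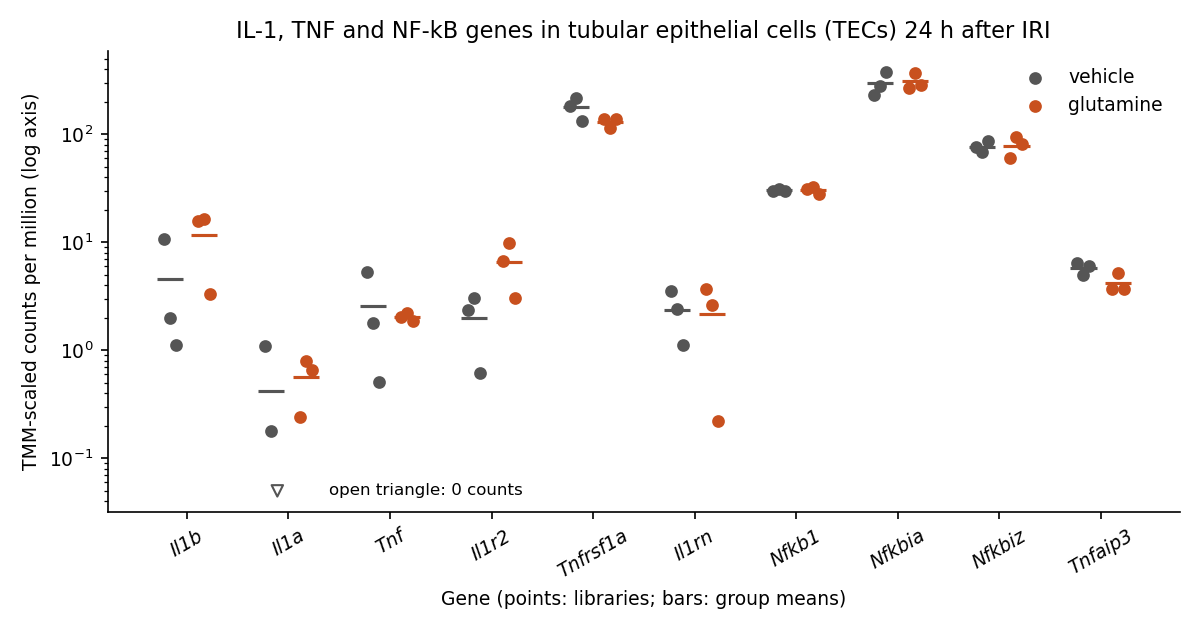
Level in CPM (log axis) of each of the 10 genes in the 3 vehicle and 3 glutamine TEC libraries, with one point a library and bars at the group means. The open triangle marks the vehicle library with 0 counts of Il1a, and only Il1r2 has groups apart, 3.05 against 3.07 CPM.

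Neutrophil transcripts were present in the TEC libraries and varied between them. The 13 neutrophil markers summed to 246, 110 and 103 CPM with vehicle and 141, 256 and 119 CPM with glutamine, and 5 of the 6 tested were higher with glutamine, none of them at an unadjusted p below 0.05 by edgeR. One chemokine receptor gene, Cxcr2, made up much of that sum, at 80.9, 59.7 and 88.0 CPM with vehicle and 37.8, 48.6 and 85.2 CPM with glutamine, and it was highest in vehicle replicate 5, where S100a8 was lowest. Without Cxcr2 the sum was 165, 50.6 and 15.2 CPM with vehicle and 104, 207 and 33.8 CPM with glutamine. S100a8 was at 68.1, 20.6 and 6.83 CPM with vehicle and 42.5, 107 and 16.9 CPM with glutamine. Elane was at 0 in every library, and Csf3r, Ngp, Camp and Ltf were at 0 in some. Mpo, left out of the test by the filter, had 12, 5 and 9 counts with vehicle and 0 in every glutamine library. The 3 libraries with the highest neutrophil sums, with or without Cxcr2, vehicle replicate 3 and glutamine replicates 1 and 2, were also the 3 with the highest Il1b. Il1rn and Tnf were also highest in those 3. The other members, Nfkbia and Nfkb1 among them, showed no such order. Il1r2 was at 2.37 CPM in vehicle replicate 3, below 3.05 CPM in vehicle replicate 4 and 3.07 CPM in glutamine replicate 3.

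Per count of S100a8 and S100a9, Il1b counts in TECs were 0.0801, 0.0492 and 0.104 with vehicle and 0.191, 0.0936 and 0.123 with glutamine, so the groups overlapped. Il1r2 counts on the same base were 0.0178, 0.0761 and 0.0566 with vehicle and 0.0816, 0.0566 and 0.115 with glutamine, also overlapping. Monocyte, macrophage and dendritic cell markers summed to 93.8, 61.3 and 100 CPM with vehicle and 122, 176 and 73.6 CPM with glutamine. Of that list 8 of the 10 tested were higher and Itgax was at 0 throughout. Lyz2, the lysozyme gene of myeloid cells, was the one at an unadjusted p below 0.05, at 2.56, 1.61 and 1.12 CPM with vehicle and 4.44, 12.5 and 3.95 CPM with glutamine, a log2 fold change of 1.95 ± 0.62 with an adjusted p of 0.252 by edgeR. Its groups were apart, as were those of Il1r2. Ptprc, whose protein the sort selected against, was at 1.48, 1.52 and 0.102 CPM with vehicle and 2.28, 1.81 and 2.74 CPM with glutamine. The part of leukocyte transcripts in the TEC values of Il1b and Il1r2 was not tested.

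**Figure D4:**
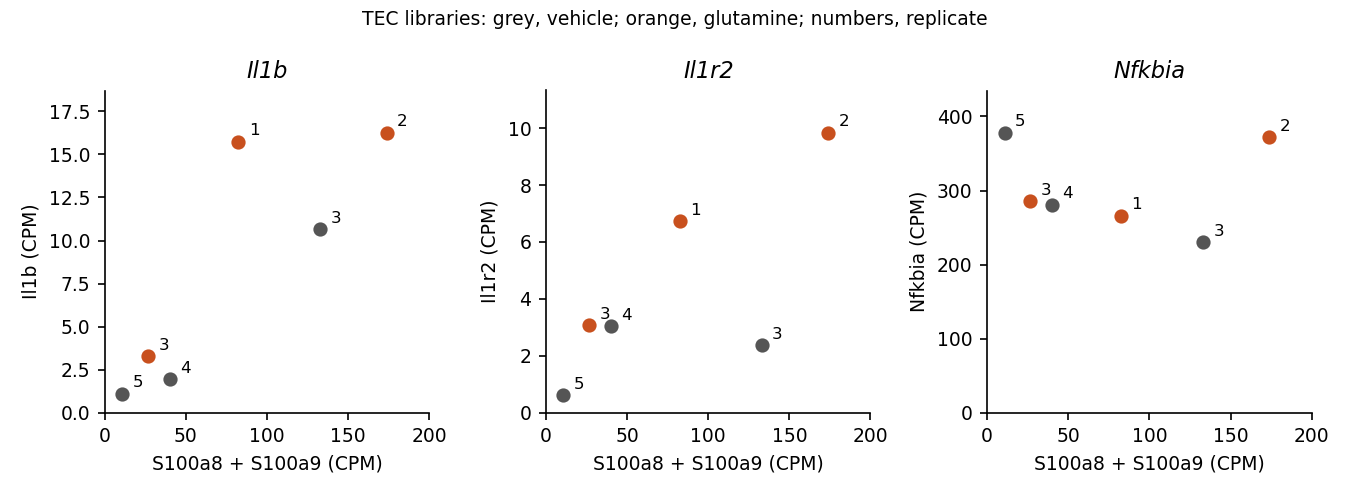
Level in CPM of Il1b, Il1r2 and Nfkbia in each TEC library against the summed CPM of the neutrophil genes S100a8 and S100a9, grey for vehicle and orange for glutamine, with the replicate number beside each point. Il1b is highest in the 3 libraries with the largest sums of these genes, 82.4 to 174 CPM, whereas Nfkbia is not. Neither is Il1r2, at 2.37 CPM in vehicle replicate 3 against 3.05 CPM in vehicle replicate 4.

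Of the 76 other pathway genes with a row, 62 were tested in TECs, 39 higher and 23 lower, and the median of their log2 fold changes was 0.07. At an unadjusted p below 0.05 there were 4 higher and 1 lower, against 7.23% and 5.51% of all TEC genes, and groups were apart for 9 higher and 3 lower, against 9.01% and 9.81%. With edgeR on all libraries, the count of 4 is thus no more than the share over all genes gives, and the genes are named as a description. Without vehicle replicate 5 it was 9 of 64, against 1556 of 15540 genes. With limma-voom it was 6 of 62, against 1147 of 14734. In these 2 settings the share was larger than over all genes. By less, it was also larger in some others, such as 4 of 66 against 832 of 15498 without glutamine replicate 1. Nfkbid was at 0.888, 1.43 and 1.43 CPM with vehicle and 3.84, 5.22 and 6.69 CPM with glutamine, a log2 fold change of 2.06 ± 0.57 with an adjusted p of 0.223 by edgeR. Tnip1, which encodes the A20-binding protein ABIN-1, was at 27.2, 28.9 and 29.8 CPM with vehicle and 38.3, 45.0 and 61.1 CPM with glutamine. Its log2 fold change was 0.75 ± 0.24 with an adjusted p of 0.252 by edgeR. Sigirr, an inhibitory receptor of the IL-1 receptor family, had a log2 fold change of 0.83 ± 0.31 with an adjusted p of 0.319. Tab1, which activates the kinase TAK1, was at 7.69, 8.24 and 9.68 CPM with vehicle and 4.44, 3.82 and 2.96 CPM with glutamine, a log2 fold change of -1.19 ± 0.40 with an adjusted p of 0.269 by edgeR. The groups of these 4 genes did not overlap. The remaining gene, named here after its value was seen, was Il1rl1, the IL-33 receptor, at 2.02 ± 0.89 with an adjusted p of 0.38 by edgeR.

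By list in TECs, other NF-kB inhibitors and feedback genes were higher for 9 of 13 with a median of 0.08, and other induced targets for 9 of 10 with a median of 0.28. Adaptors and kinases were higher for 10 of 19, IKK and other NF-kB subunits for 3 of 6, other IL-1 family genes for 4 of 7, TNF receptors and shedding genes for 3 of 4, and IL-1 maturation genes for 1 of 3. All 76 genes together summed to 1843 to 1960 CPM with vehicle and 1834 to 2229 CPM with glutamine.

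The difference between the cell types was compared for the 9 genes tested in both, as the glutamine effect on mean log2 CPM in TECs less that in PMN. It was 1.22 for Il1b, 1.24 for Il1r2, -0.98 for Il1rn, -0.76 for Tnfaip3, -0.60 for Nfkbiz, -0.46 for Nfkbia, -0.45 for Nfkb1, -0.39 for Tnfrsf1a and -0.12 for Tnf. In an exact two-sided permutation test over 400 regroupings the smallest p was 0.175, for Nfkbiz, and the adjusted p was 0.529 for 8 genes and 0.960 for Tnf. A difference between TECs and PMN in the glutamine effect was thus not detected for any of the 9. The sizes moved widely when a single library was left out, for Il1b from 0.60 without TEC vehicle replicate 5 to 2.11 without TEC vehicle replicate 3, and for Il1r2 from 0.64 without TEC vehicle replicate 5 to 1.69 without TEC glutamine replicate 3. Il1rn went from -1.58 without TEC glutamine replicate 1 to -0.01 without TEC glutamine replicate 3, and Nfkb1 from -0.78 without PMN vehicle replicate 3 to -0.04 without PMN vehicle replicate 2. Il1r2 in TECs, like Il1b, Il1r2 and Nfkbia in PMN, was at an exact permutation p of 0.1 within its own table.

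**Figure D5:**
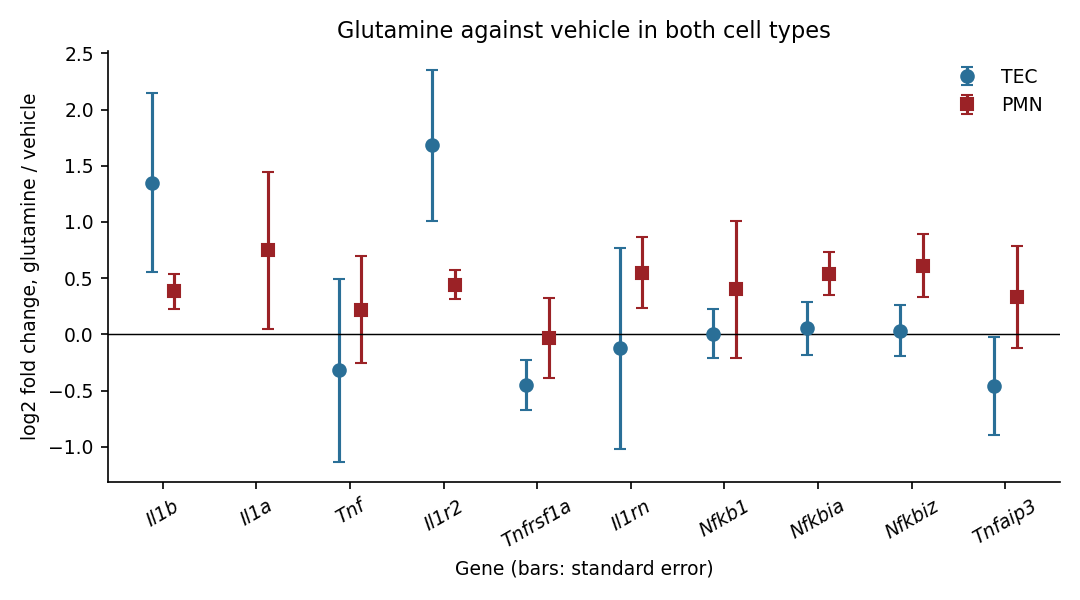
Fitted log2 fold change with glutamine against vehicle for each gene in TECs (circles) and PMN (squares), with bars of 1 standard error and n = 3 libraries a group. In PMN 9 of 10 estimates lie above 0, and in TECs the estimates of Il1b and Il1r2 have the widest distance from those of the NF-kB genes near 0.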

How the data were processed

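Per the labels, libraries of 50-base reads were trimmed with Trim Galore 0.6.4 and quantified with Salmon 1.0.0 against mm10. FastQC, MultiQC and DESeq2 are also named, and the annotation version is not given in the sources used here. The authors deposited 1 table of estimated counts per gene for each cell type. Deposited PMN values of other form (3.2% of cells with extra points, 0.391% turned into dates by a spreadsheet) were decoded to estimated counts on the assumption that the last point is the decimal one and that a date's day and month are the figures around it. Where 1 column of a library had extra points and the other did not, 98.2% of 4226 pairs agreed within 10%. The 2 columns of a PMN library (correlation 0.997 to 0.998) were averaged as 1 sample. Counts were rounded. CPM are scaled by TMM.

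Glutamine was compared with vehicle in each cell type separately with the quasi-likelihood test of edgeR (version 4.0.16 in R 4.3.3) on genes passing filterByExpr, with Benjamini-Hochberg adjustment over all genes tested and a threshold of 0.05. DESeq2 1.42.0, limma 3.58.1, other scalings, other filters and leaving out single libraries were alternatives. Exact permutation used log2 CPM with a prior count of 2. The scripts were checked on simulated data with 200 changed genes. Labels do not say that libraries come from separate animals, so p-values measure the spread between these libraries. Members and lists were chosen with earlier results of these data known. All members are named, and of the pathway lists up to 3 genes a direction by smallest unadjusted p below 0.05. Il36a, Irak1, Tab3 and Ikbkg were not analysed here. Sequences are from RefSeq.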

Additional observations from a re-analysis of the deposited data

How the results depend on the processing

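No member passed an adjusted p of 0.05 under any alternative in either cell type, although over all genes DESeq2 called 245 in TECs and 304 in PMN and edgeR without a filter called 425 in TECs. Of 283 alternative values for the 19 member results, 262 kept direction and side of the threshold and 21 reversed. In TECs, Tnf reversed to 0.20 with limma-voom, and Nfkb1 to -0.01 with limma-voom and to -0.02 with upper-quartile scaling and without the filter. In PMN, Tnfrsf1a reversed to 0.03 with upper-quartile scaling. Leaving out single libraries gave ranges of -0.81 to 0.43 for Il1rn, -0.81 to 0.80 for Tnf, -0.11 to 0.26 for Nfkbia, -0.12 to 0.19 for Nfkbiz and -0.05 to 0.07 for Nfkb1 in TECs. In PMN the ranges were -0.07 to 0.75 for Tnf, -0.26 to 0.17 for Tnfrsf1a and -0.01 to 0.64 for Tnfaip3, and the TEC less PMN difference of Tnf ranged from -0.85 to 0.61. The count of members with groups apart in TECs (1) was 0 with upper-quartile scaling, without the filter, under a minimum of 10 counts a library (which leaves out Il1r2) and with scaling on genes of at least 100 CPM. Without single libraries it was 1 to 3, reaching 3 without vehicle replicate 3 and 2 without vehicle replicate 4 or 5 or glutamine replicate 2 or 3. In PMN (3) it was 5 with upper-quartile scaling and 2 to 5 without single libraries, reaching 5 without vehicle replicate 1 or glutamine replicate 2. Pathway genes at an unadjusted p below 0.05 in PMN (5) were 1 with DESeq2, 9 with limma-voom, 2 with RLE scaling, 3 under a minimum of 10 counts a library, and 0 to 6 without single libraries, with 0 without vehicle replicate 2 and 3 without vehicle replicate 3 or glutamine replicate 1 or 3. In TECs (5) they were 4 to 11 without single libraries, with 11 without vehicle replicate 5. Fewer libraries make groups come apart more easily, and otherwise the cause was not tested. The median over all genes moved to 0.17 with DESeq2 and 0.14 without the filter in TECs, and to -0.11 without glutamine replicate 2 in PMN. No paired analysis was possible because replicate 3 is the single number common to both TEC groups and PMN labels have no numbers that pair samples. Low counts limit Il1a, Il1b, Il1rn, Il1r2 and Tnf in TECs.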
